A study of Mus musculus with 6 samples.

Results

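Expression of adenylate kinases was examined in whole embryonic lungs (E18.5) of RbpjkCNULL and control mice. Each condition had 3 lungs, dissected at and distal to the carina, and every lung was hybridized to an Affymetrix array of its own. The set was chosen by gene symbol and holds the axonemal members Ak7, Ak8 and Ak9. The other members, Ak1, Ak3, Ak4, Ak5 and Ak6, are grouped here as cytosolic and mitochondrial. Of these 8 genes, 7 had a row among the 21225 genes of the array table. Ak9 was named through its Entrez Gene ID, which is the number in its feature name, because the platform table holds no symbol for it. Ak6 was not found under its ID, and no value is given for it. The RbpjkCNULL lungs were Shhcre/+; RbpjkFlox/Flox, and are also labelled Rbpjk -/-. Cre expressed from Shh removes Rbpj, the transcription factor of canonical Notch signaling, from the lung epithelium, while the other cells of the lung keep it. For the controls, a wildtype genotype and Shh cre/+ both appear in the labels, and whether they carried cre is therefore unsettled. All mice were given as C57BL/6.

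Adenylate kinases interconvert AMP, ADP and ATP, and so return the AMP that ATP-consuming reactions leave behind to the ADP pool. Most cells use a cytosolic form, Ak1, and mitochondrial forms. Motile cilia, whose dynein motors consume ATP far from mitochondria, carry adenylate kinases of their own along the axoneme. In the airways, cilia of this kind are found on ciliated cells, which stand beside secretory Clara cells (CCs), and Notch signaling takes part in the choice between these fates.

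Differences were tested gene by gene with limma, whose estimate of a gene's variance borrows from all others, with Benjamini-Hochberg adjustment over the 21225 genes. The words rose and fell are kept for genes with an adjusted p under 0.05. All values are log2 expression values from RMA, all differences are RbpjkCNULL minus control, and levels are not compared between genes. Percentiles of the gene means serve only to mark low values. At this threshold 1.16% of all genes were higher and 0.113% were lower in RbpjkCNULL lungs. The median log2 fold change of all genes was -0.05.

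Some features of the lungs touch every result given here. Rbpj had log2 values of 6.17 to 6.26 in RbpjkCNULL lungs and of 6.45 to 6.74 in control lungs, a difference of -0.36 (adjusted p = 0.21) that did not pass the test in whole lung. The CC marker Scgb1a1 fell, with log2 values of 4.03 to 5.88 in RbpjkCNULL lungs and of 9.71 to 10.6 in control lungs (adjusted p = 0.00249). Xist, the transcript of the inactive X chromosome, was low in 3 RbpjkCNULL lungs and in 1 control lung, replicate 3, and high in the other 2 control lungs, so the sexes were unevenly divided between the conditions. The lower quartile of RbpjkCNULL replicate 1 and of control replicates 1 and 3 was 5.03 to 5.11, against 4.87 to 4.89 on the other arrays. Nothing states that the lungs came from separate litters, and p values measure the spread between these lungs.

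The 3 axonemal adenylate kinases rose in RbpjkCNULL lungs, and none of the 4 measured cytosolic and mitochondrial members passed the test. At the same threshold 1.16% of all genes were higher and 0.113% were lower. Ak7 was 2.21-fold, Ak9 2.11-fold and Ak8 1.63-fold higher. Ak1 had a smaller difference in the same direction, and the differences of Ak3, Ak4 and Ak5 were negative. The median log2 fold change was 1.07 over the axonemal members and -0.05 over the others. The groups of lungs did not overlap in 5 of the 7 genes, 4 of them higher and 1 lower in RbpjkCNULL lungs, against 14.2% of all genes, and 5 of the 7 had an unadjusted p under 0.05, against 8.53% of all genes.

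Ak7 (chr12:105703858-105782447), without which mice develop ciliary dyskinesia, had log2 values of 7.97, 8.16 and 8.05 in RbpjkCNULL lungs and of 6.79, 6.88 and 7.07 in control lungs. Every RbpjkCNULL lung lay above every control lung, with a gap of 0.89 between the closest lungs, larger than the spread of 0.19 among RbpjkCNULL lungs or of 0.28 among controls. Its log2 fold change was 1.15 (standard error 0.10, 95% interval 0.92 to 1.37, adjusted p = 0.00249), the 39th highest of all genes.

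Ak9 (chr10:41303432-41433569), a large member with repeated kinase domains, had log2 values of 7.08, 7.14 and 7.21 in RbpjkCNULL lungs and of 5.92, 6.12 and 6.15 in control lungs. The groups were separated by a gap of 0.92, the widest of the 7 genes. The log2 fold change was 1.07 (standard error 0.09, 95% interval 0.87 to 1.27, adjusted p = 0.00224), the 59th highest.

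Ak8 (chr2:28698275-28813165), whose loss like that of Ak7 causes hydrocephalus in mice, had log2 values of 7.10, 7.15 and 7.19 in RbpjkCNULL lungs and of 6.48, 6.43 and 6.41 in control lungs. It had the tightest replicates of the 3 axonemal genes, with means of 7.15 ± 0.05 in RbpjkCNULL and 6.44 ± 0.03 in control lungs (SD, n = 3 each). The log2 fold change was 0.71 (standard error 0.07, 95% interval 0.55 to 0.86, adjusted p = 0.00325), the 203rd highest.

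In control replicate 3, the control lung with low Xist, the log2 values of Ak7, Ak8 and Ak9 lay below those of every RbpjkCNULL lung. Among the 4 lungs with low Xist the differences were 0.99 for Ak7, 0.73 for Ak8 and 0.99 for Ak9, with adjusted p of 0.0767, 0.112 and 0.0767. That fit takes the spread from the RbpjkCNULL lungs and assumes that the lone control lung varies alike. With the Xist level as a covariate the differences were 0.96, 0.74 and 0.98, and adjusted p were 0.126, 0.156 and 0.141. The calls of these 3 genes thus ended in both fits, while their differences stayed positive. With the covariate 0 of all 21225 genes passed, so the loss was not particular to these 3. The part of sex in their values was not tested.

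**Figure D1:**
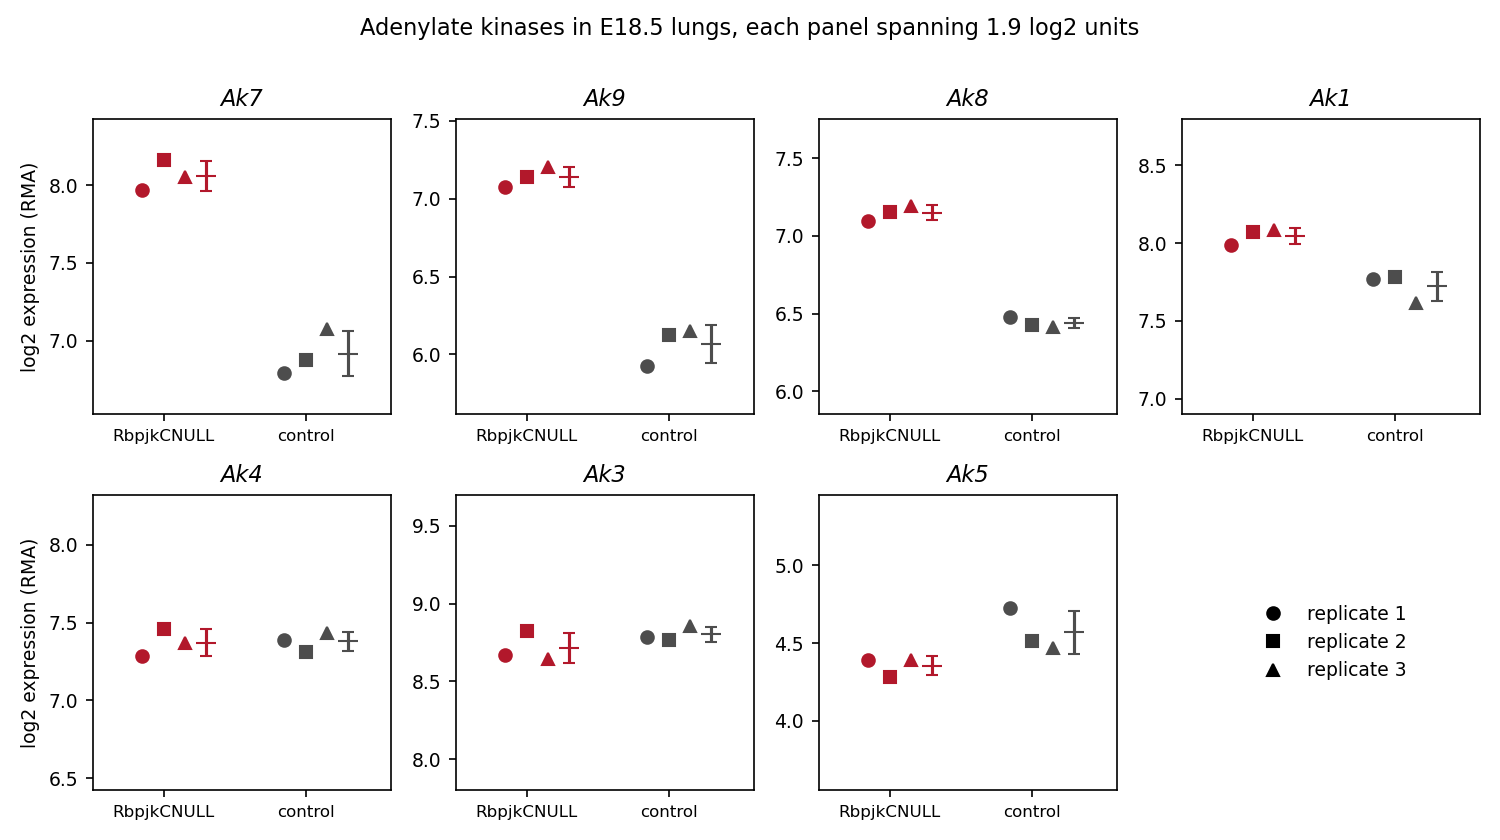
Log2 expression of the 7 measured adenylate kinases by lung, RbpjkCNULL (red) on the left and control (grey) on the right. Symbols are replicates, and the bar beside them is the mean with its SD (n = 3). The groups of Ak7, Ak9 and Ak8 lie apart by 0.62 or more, and those of Ak3 and Ak4 overlap.

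The sequence before a listed start site of the 3 axonemal genes is shown because these genes moved together. That of Ak1 is shown because it was nearest to them among the other members. Each line gives the 150 bases before the first start site among the promoter entries of the gene (GRCm38.p6, plus strand). Capitals mark a match to any of the motifs searched on both strands.
Ak7, chr12:105705832-105705981: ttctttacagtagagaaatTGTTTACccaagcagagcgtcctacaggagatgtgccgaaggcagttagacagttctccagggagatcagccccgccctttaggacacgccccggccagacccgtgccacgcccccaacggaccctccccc
Ak8, chr2:28700011-28700160: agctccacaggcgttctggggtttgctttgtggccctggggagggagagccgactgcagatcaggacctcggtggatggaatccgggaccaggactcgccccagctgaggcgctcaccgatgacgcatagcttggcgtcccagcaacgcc
Ak9, chr10:41303784-41303933: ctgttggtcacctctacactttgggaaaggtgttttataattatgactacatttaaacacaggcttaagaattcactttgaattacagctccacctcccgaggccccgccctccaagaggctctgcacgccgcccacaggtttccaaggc
Ak1, chr2:32621608-32621757: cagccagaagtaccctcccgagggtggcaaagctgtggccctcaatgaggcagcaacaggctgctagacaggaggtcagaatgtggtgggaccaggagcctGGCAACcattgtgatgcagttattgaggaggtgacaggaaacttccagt
The windows of Ak7, Ak8 and Ak9 lie within the outer bounds of their genes, and that of Ak1 lies just before the gene. The sequence before the outer bounds of Ak7, Ak8 and Ak9 was not searched.

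The motifs were looked for in the 250 bases before each start site, in the 7 of the 8 members that have an entry in the RefSeq table. These include Ak6. Ak5 has no entry and was not searched. The forkhead motif TGTTTAC, named for the family of Foxj1, was found in Ak7 at 131 to 125 bases before the start. No other member searched held it, against 3.17% of 32851 promoters. The X-box bound by RFX factors was searched as GTNNCC and NGNAAC with 0 to 3 bases between them. It was found in none of the 7 members searched and in 4.42% of promoters. Its shorter form GTTGCC was found before the first and the last of 4 start sites of Ak1, and in 10.4% of promoters. The match nearest to the first start was at 49 to 44 bases before it, on the minus strand. The match nearest to the last start was at 24 to 19 bases before it, on the plus strand. The RBPJ motif GTGGGAA was found among the members searched only before Ak6, which has no value here, and in 5.42% of promoters. The forkhead motif overlaps none of the other 3. These matches describe letters and no binding.

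The share of G and C in the same 250 bases was 58.4% for Ak7, 61.2% for Ak8 and 48.4% for Ak9, against 68.0% for Ak3, 53.2% to 58.0% over the starts of Ak1 and 60.4% to 74.8% over those of Ak4. The median of all promoters was 52.4%, so the 3 genes that rose lay on both sides of it.

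Among the cytosolic and mitochondrial members, Ak1 stood closest to the axonemal genes. Ak1 (chr2:32621758-32635058), the cytosolic kinase that is abundant in muscle, brain and red blood cells, had log2 values of 7.99, 8.07 and 8.08 in RbpjkCNULL lungs and of 7.77, 7.78 and 7.62 in control lungs. The groups did not overlap, with a gap of 0.21 between the closest lungs, as was the case in this direction for 4.95% of all genes. The log2 fold change was 0.33 (standard error 0.08, 95% interval 0.15 to 0.50, 1.25-fold) and did not pass over all genes (adjusted p = 0.15, unadjusted p = 0.00304). With arrays weighted by their quality the difference was 0.38 and passed (adjusted p = 0.046), the only alternative of 20 under which any of the 4 genes was called.
Of 6 measured markers of erythroid cells, in which Ak1 is known to be abundant, none passed, with log2 fold changes from -0.08 (Epb42) to 0.27 (Alas2) and a median of 0.08. Hbb-b1 had 0.22. Their mean level ranged from 6.78 to 6.97 in RbpjkCNULL lungs and from 6.76 to 6.80 in control lungs. Of 10 markers of cardiac and skeletal muscle none passed, with log2 fold changes from -0.32 (Actc1) to 0.16 (Tnni3), a median of -0.11 and mean levels of 6.99 to 7.49 in RbpjkCNULL lungs and of 7.24 to 7.27 in control lungs. Their part in the values of Ak1 was not tested.

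Ak3 and Ak4 are enzymes of the mitochondrial matrix, and Ak3 uses GTP in place of ATP. Ak3 (chr19:28995053-29048080) had log2 values of 8.67, 8.82 and 8.65 in RbpjkCNULL lungs and of 8.79, 8.77 and 8.86 in control lungs. The groups overlapped, and the difference of -0.09 (standard error 0.08, 95% interval -0.27 to 0.09, adjusted p = 0.78) was within the spread between lungs.
Ak4 (chr4:101416478-101467771), known as a target of the hypoxia response, had log2 values of 7.28, 7.46 and 7.37 in RbpjkCNULL lungs and of 7.39, 7.31 and 7.43 in control lungs. The difference was -0.01 (standard error 0.08, 95% interval -0.19 to 0.17, adjusted p = 0.983), the nearest to 0 of the 7 genes, and its sign turned under several alternatives. None of 11 genes of the hypoxia response passed, and their median was 0.02.

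Ak5 (chr3:152462815-152668406), a cytosolic kinase best known from brain, was the only member whose RbpjkCNULL lungs all lay below the control lungs. Its log2 values were 4.39, 4.28 and 4.40 in RbpjkCNULL lungs and 4.73, 4.51 and 4.47 in control lungs, with a gap of only 0.07. Groups lay apart in this direction for 9.28% of all genes. The log2 fold change was -0.21 (standard error 0.09, 95% interval -0.42 to -0.01, adjusted p = 0.567). Its mean over the lungs was at the 17.7th percentile of the gene means, low on the scale of this array, so Ak5 was not shown to be above background. Of 11 neuroendocrine and 6 neuronal markers none passed, with medians of -0.12 and -0.10.

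**Figure D2:**
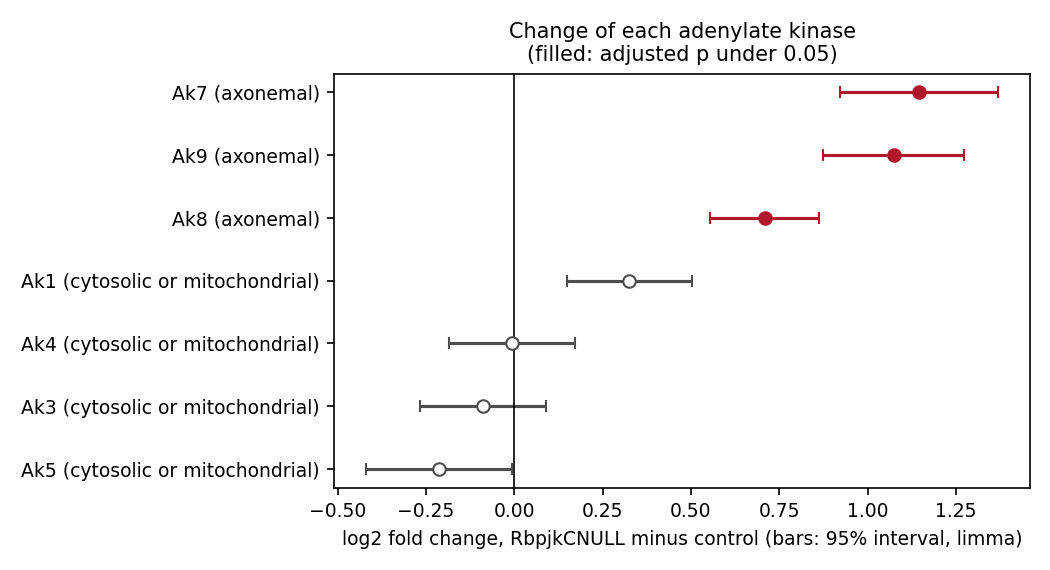
Log2 fold change of each measured adenylate kinase, RbpjkCNULL minus control, with its 95% interval from limma, ordered from the highest. Filled points passed at an adjusted p under 0.05. The intervals of Ak7, Ak9 and Ak8 begin at 0.92, 0.87 and 0.55, and those of Ak4 and Ak3 hold 0.

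The changes of the members were set against each other by taking, within each lung, the difference of their log2 values and comparing it between the conditions. Each of the 3 axonemal genes was compared with each of the 4 other measured members. All 12 differences were positive, which follows from the smallest axonemal change lying above the largest change of the others. They are given as a description, and only the step between Ak8 and Ak1 has a test below. The smallest was that between Ak8 and Ak1, 0.38 (standard error 0.05). Ak8 against Ak3 gave 0.80 (0.07), Ak9 against Ak4 gave 1.08 (0.09) and Ak7 against Ak3 gave 1.23 (0.07).
Neighbours in the order of changes were compared with a two-sided exact permutation test, whose smallest p is 0.1 with 3 lungs against 3, so that no step could pass. Ak7 and Ak9 differed by 0.07 (standard error 0.07, exact p = 0.5, adjusted over 6 steps 0.5). Ak9 exceeded Ak8 by 0.37 (0.09, exact p = 0.1, adjusted 0.15). Ak8 exceeded Ak1, the step between the 2 classes, by 0.38 (0.05, exact p = 0.1, adjusted 0.15). Ak1 exceeded Ak4 by 0.33 (0.09, exact p = 0.1, adjusted 0.15).
The mean log2 fold change of the 3 axonemal genes exceeded that of the 4 others by 0.97, the axonemal contrast, which is given without a test because the members were chosen with results known. The mean log2 value of the 4 other genes ranged from 7.08 to 7.16 in RbpjkCNULL lungs and from 7.09 to 7.17 in control lungs.

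Markers of ciliated cells moved with the axonemal kinases. Of 29 measured markers 24 rose and none fell, against 1.16% and 0.113% of all genes. Their median log2 fold change was 0.97. Their mean level ranged from 7.36 to 7.47 in RbpjkCNULL lungs and from 6.44 to 6.61 in control lungs. Foxj1, the transcription factor that directs motile ciliogenesis, was 1.72-fold higher (adjusted p = 0.0333). With the Xist covariate, or among the 4 lungs with low Xist, 0 of all genes passed limma (1418 and 1833 had an unadjusted p under 0.05 in these fits), so these marker calls ended too. The part of ciliated cell number in the values of Ak7, Ak8 and Ak9 was not tested. In whole lung, a different number of cells and a different amount of RNA per cell cannot be told apart.
Across the 6 lungs the log2 values of the 3 axonemal genes followed each other, with Pearson's r of 0.98 to 0.99 for the 3 pairs. Ak1 had r of 0.90 with Ak7, 0.96 with Ak8 and 0.92 with Ak9, and Ak5 had r of -0.85, -0.74 and -0.84 with them. These lungs fall into 2 conditions, and any pair of genes that differ between them correlates, so the values only describe the pattern.
The genes most like each axonemal kinase were ranked by r over the 6 lungs among 20768 named genes. Ak7 was followed most closely by Elmod1, Zfp474 and Dnaaf4, a dynein arm assembly factor, with log2 fold changes of 0.98, 1.33 and 0.71. Ak8 was followed by Dnaic2, an intermediate chain of outer dynein arms, Fhad1 and Ankrd45, with log2 fold changes of 0.78, 0.89 and 0.80. Ak9 was followed by Elof1 and the radial spoke gene Rsph1, with 0.47 and 1.12. These 8 genes all passed limma, and all had r of 0.997 or more over 6 lungs. This likeness was not narrow, since 268 genes had an r over 0.95 with Ak7, 213 with Ak8 and 262 with Ak9, against 36 with Ak1, 26 with Ak3, 14 with Ak4 and 75 with Ak5.

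Lists of related enzymes and carriers were read beside the adenylate kinases, with a further list of the doublet microtubule proteins Cfap45 and Cfap52. Of 43 genes measured in these lists, 4 rose and none fell, against 1.16% and 0.113% of all genes. They were Nme9, Nme5, Lrguk and Cfap52, and their calls also ended with the Xist covariate and among the lungs with low Xist.
Nucleoside diphosphate kinases of the Nme family pass the terminal phosphate of ATP to other nucleotides, and some of them are built into cilia. Of 9 measured, 2 rose, against 1.16% of all genes, and the median log2 fold change of the 9 was 0.07. Nme9, which joins a thioredoxin domain to a kinase domain, had log2 values of 7.82, 7.71 and 7.64 in RbpjkCNULL lungs and of 6.33, 6.62 and 6.57 in control lungs. It was 2.33-fold higher (log2 fold change 1.22, standard error 0.10, adjusted p = 0.00224).
Nme5, a component of radial spokes, had log2 values of 8.26, 8.46 and 8.41 in RbpjkCNULL lungs and of 6.94, 7.27 and 7.34 in control lungs. It was 2.28-fold higher (log2 fold change 1.19, standard error 0.12, adjusted p = 0.00361). The other 7 Nme genes had log2 fold changes from -0.21 (Nme1) to 0.25 (Nme7). Nme8, known from outer dynein arms, had values of 2.80 to 3.11 in RbpjkCNULL lungs and of 2.99 to 3.31 in control lungs, low on the scale of this array, and a difference of -0.17 (adjusted p = 0.731).

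Among 6 other nucleoside monophosphate kinases, 1 rose, against 1.16% of all genes. Lrguk, a guanylate kinase with leucine-rich repeats that male mice need to build sperm tails, had log2 values of 6.91, 7.21 and 7.07 in RbpjkCNULL lungs and of 5.88, 6.33 and 6.18 in control lungs. It was 1.91-fold higher (log2 fold change 0.94, standard error 0.13, adjusted p = 0.0166). Cmpk2, a mitochondrial UMP-CMP kinase, had a difference of 0.47 (adjusted p = 0.406).
Cfap52 and Cfap45 line the inside of ciliary doublet microtubules, and Cfap45 is known to bind AMP and to associate with Ak8. Cfap52 rose 2.44-fold (log2 fold change 1.29, standard error 0.07, adjusted p = 0.00121). Its log2 values were 8.61 to 8.68 in RbpjkCNULL lungs and 7.28 to 7.44 in control lungs. Cfap45 had log2 values of 6.86 to 7.31 in RbpjkCNULL lungs and of 6.33 to 6.53 in control lungs, without overlap, but its difference of 0.63 did not pass (standard error 0.12, adjusted p = 0.076).

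**Figure D3:**
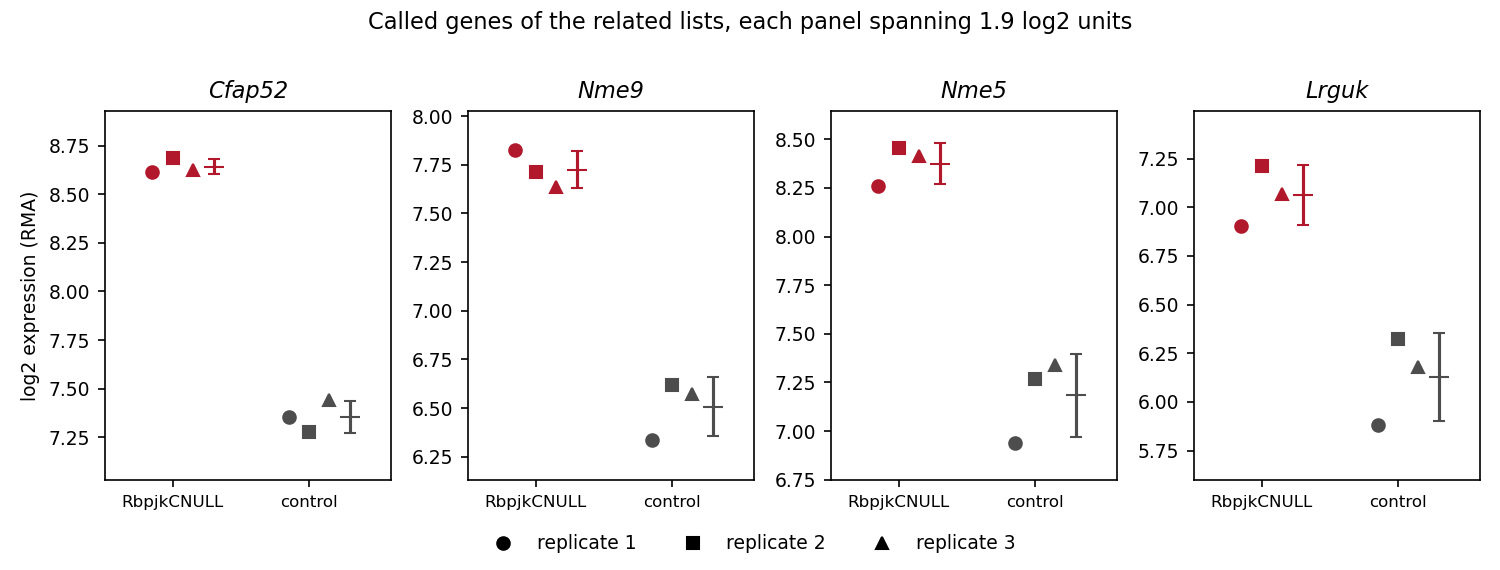
Log2 expression by lung of the 4 genes of the related lists that passed the test, RbpjkCNULL (red) on the left and control (grey) on the right, with the mean and SD (n = 3). In each panel all 3 RbpjkCNULL lungs lie above all 3 control lungs.

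The remaining lists held no gene that passed. They were 4 creatine kinases, which buffer ATP with creatine phosphate, with a median log2 fold change of -0.01 and the largest difference, 0.17, in Ckb (adjusted p = 0.718), followed by -0.15 in Ckmt2 (adjusted p = 0.731). The 7 subunits of AMP-activated protein kinase, the sensor of cellular AMP, had a median of 0.00, and none differed by more than the -0.16 of Prkag3 (adjusted p = 0.718), followed by 0.04 for Prkaa2 (adjusted p = 0.955). The 13 other enzymes of AMP and adenosine had a median of 0.02. The largest differences among them were -0.29 for the nucleotidase Nt5c1a (adjusted p = 0.508) and -0.27 for adenosine deaminase, Ada (adjusted p = 0.169). The 2 measured mitochondrial ADP/ATP carriers, Slc25a4 and Slc25a31, had differences of -0.07 and -0.05 (adjusted p = 0.797 and 0.878). The carrier Slc25a5 was not measured. The means of Slc25a31, Nt5c1a and Ckmt2 lay at the 9.69th, 14.2nd and 14.8th percentiles of the gene means. These 3 genes were low on the scale of this array and not shown to be above background.

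**Figure D4:**
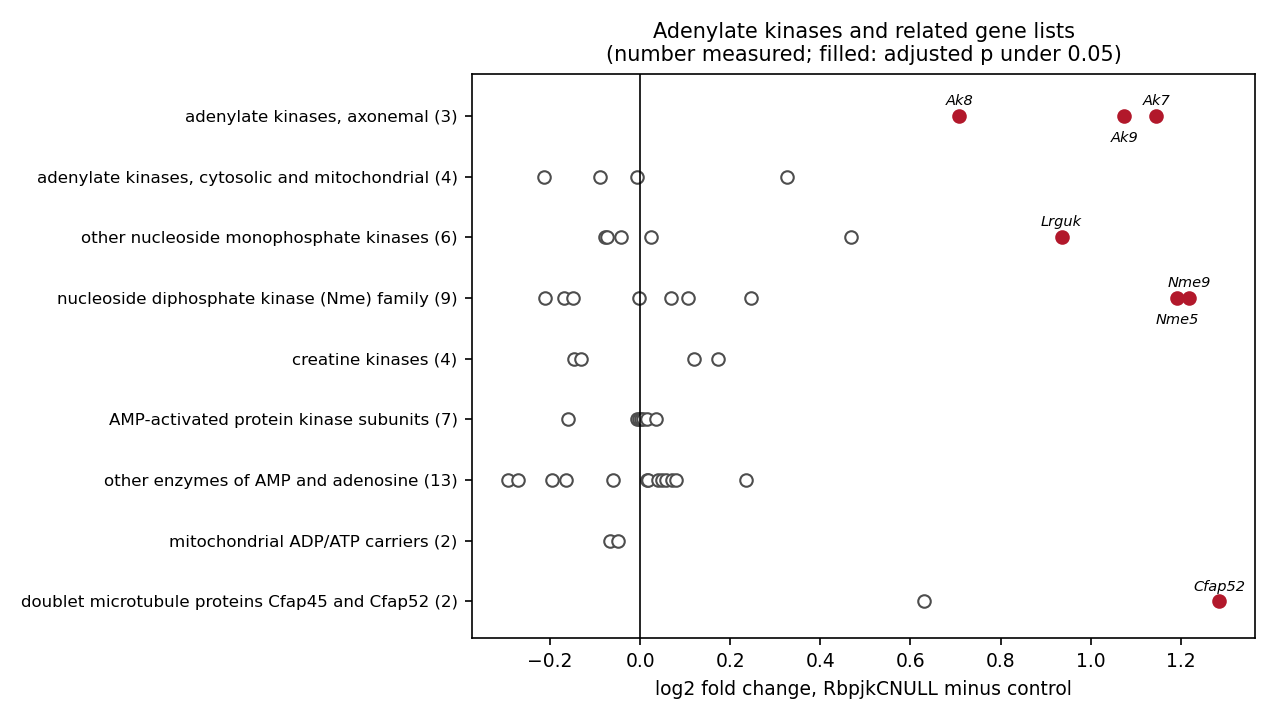
Log2 fold change, RbpjkCNULL minus control, of every measured gene of the adenylate kinases and of each related list, 1 row per list with the number measured. Filled red points passed at an adjusted p under 0.05 and are named, and all of them lie at 0.71 or above.

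**Figure D5:**
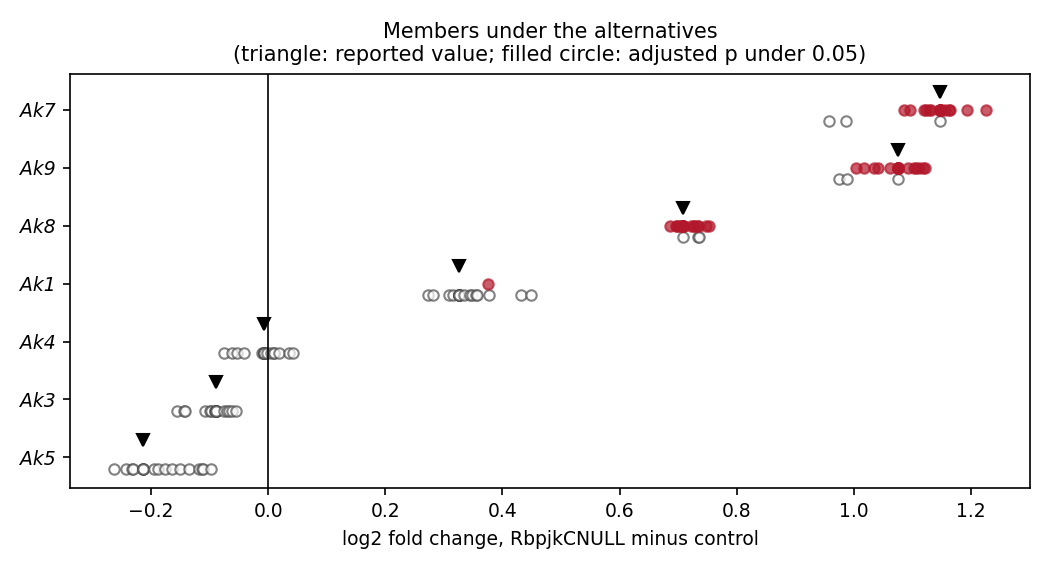
Log2 fold change of each member, RbpjkCNULL minus control, under the alternative settings (circles, 20 for each gene but 18 for Ak5) and as reported (triangles). Filled circles passed at an adjusted p under 0.05. The values of Ak7, Ak8 and Ak9 stay between 0.69 and 1.23, while those of Ak4 lie on both sides of 0.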

How the data were processed

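Total RNA of whole E18.5 lungs was amplified, labelled and hybridized to Affymetrix Mouse Gene 1.0 ST arrays. The authors deposited log2 values from RMA, which subtracts background, equalises the distributions of the arrays and summarises probes by median polish, here by Entrez Gene under R 2.12.0. These were used without further scaling or filter. Of 21225 genes, 20239 had 1 symbol in the platform table, and in each of these the number in the feature name was the Entrez ID. A further 529 were named by that number in the RefSeq table of GRCm38.p6, and 457 stayed unnamed. Positions and promoter sequences are from RefSeq (GRCm38.p6).

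The main test was lmFit and eBayes of limma 3.58.1 (R 4.3.3, prior of 3.48 degrees of freedom). The fit was checked on simulated data. Named are all members, the called genes of each related list or else its 2 largest differences, and the 3 genes most like each axonemal member, except items that are not reported here. Members, lists, tests and alternatives were chosen with earlier results of these data known. Restriction to the lungs with low Xist, the 12 pairs and the genes named beside these were added after seeing the values. Alternatives were the methods' t-test, variance moderation, scaling, filters, array weights, covariates, a block and left-out arrays.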

Additional observations from a re-analysis of the deposited data

How the results depend on the processing

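Precision is limited by having only 6 arrays. The 3 axonemal genes kept their direction under all 20 alternatives and passed in 17 of them, and the exceptions were the methods' t-test, the Xist covariate and the lungs with low Xist alone. By the methods' t-test adjusted p were 0.0942 for Ak7 (log2 fold change 1.15), 0.0597 for Ak8 (0.71) and 0.0942 for Ak9 (1.07). The study set a looser limit on the adjusted p of its t-test, which these 3 values meet, beside limits on unadjusted p and fold change. At the limit of 0.05 used here these genes did not pass. That test called 0 members (4 at an unadjusted p under 0.05), 1 related gene and 8 genes in all. With the Xist covariate the differences were 0.96, 0.74 and 0.98 for Ak7, Ak8 and Ak9, with 0 members (4 unadjusted), 0 related genes (8 unadjusted) and 0 genes called in all (1418 unadjusted), and the axonemal contrast was 0.86. In the lungs with low Xist alone, chosen after seeing the data, they were 0.99, 0.73 and 0.99, with 0 members (4 unadjusted), 0 related genes (7 unadjusted) and 0 genes in all (1833 unadjusted), and a contrast of 0.87. The first of these fits adds a term and the second drops 2 lungs, and what else lowered the calls was not tested.
Without both arrays numbered 1, 179 genes were called, against 270, with 3 members. Leaving out single arrays gave 139 genes (without RbpjkCNULL replicate 2) to 236, always 3 members, 3 to 5 related genes and a contrast of 0.91 to 1.02. It gave 1.08 to 1.23 for Ak7, 0.69 to 0.73 for Ak8, 1.00 to 1.12 for Ak9 and 0.27 to 0.36 for Ak1. It gave -0.14 to -0.06 for Ak3, -0.0526 to 0.0361 for Ak4 and -0.26 to -0.13 for Ak5. Ak4, never called, turned to 0.0104 with arrays centred on their medians, 0.0109 with cyclic loess scaling, 0.0045 with array weights and 0.0419 without both arrays numbered 1. Array weights gave 0.38 for Ak1 (adjusted p = 0.046, 0.046 to 0.52 over all alternatives). The filters on low values dropped Ak5.
With the replicate number as a block, 304 genes were called, with Ak7, Ak8 and Ak9 again among them (adjusted p = 0.00588, 0.0105 and 0.00588), and no member's call changed. Same-numbered arrays correlated by 0.49, 0.31 and -0.09 in their deviations from group means, and 3 of 6 correlated best with their own number. Whether same-numbered lungs were paired cannot be told from these values.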
